A study of Mus musculus with 6 samples.

Results

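The 35 genes described here act in homologous recombination and in Fanconi repair, and all 35 symbols were found among the 26130 genes of the deposited count table. They were chosen by name as a known repair pathway, with earlier results of these data known, and fall into 5 role groups: 10 genes of break sensing, end resection and checkpoint signalling, 5 BRCA mediators, 9 strand exchange factors, 9 genes of the Fanconi core complex with its partners, and the 2 genes of the FANCI-FANCD2 pair. The cells were mouse skeletal stem cells (mSSCs), progenitors of cartilage, bone and stroma, isolated by flow sorting from the Achilles tendon-to-bone interface of C57BL/6 mice. Bulk RNA sequencing covered 2 sham control libraries, 1 uninjured library and 3 libraries from partially injured interfaces, all at day 7 after injury. No transgene or further treatment is named for any group. The sources used here do not give the sort markers or the age of the animals, nor whether a library comes from 1 animal or a pool. The p-values below reflect the spread among these samples alone, and part of that spread may be technical.

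Homologous recombination repairs a double-strand break, or a collapsed replication fork, by copying the sister chromatid, and so works mainly in cells that are replicating or have replicated their DNA. Broken ends are trimmed to single strands, the BRCA proteins prepare these strands for exchange, and the strands invade the intact copy. The Fanconi pathway unhooks crosslinks between the strands: a core complex attaches ubiquitin to FANCD2 and FANCI, and the lesion is handed to nucleases, bypass polymerases and recombination.

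Total counts per library ran from 37506188 to 51089267, and 14183 to 17281 genes had a count. Levels are CPM, counts brought to a common library total after scaling by the trimmed mean of M-values (TMM). The mSSC surface markers Itgav and Cd200 had counts in all 6 libraries, with summed levels of 110 and 211 CPM in sham control, 212 CPM in the uninjured library and 64.7 to 230 CPM in injured. The 5 surface markers that mSSCs are known to lack (Ptprc, Tek, Thy1, Enpep, Eng) were not at 0 throughout: they summed to 297 and 0.663 CPM in sham 1 and sham 2, 97.6 CPM in the uninjured library and 18.2 to 121 CPM in injured, with 3 of 5 at 0 in sham 2 and 1 of 5 in injured 3. Sham 1 and injured 1 stood apart within their groups, with the most erythroid (38765 and 6077 CPM) and neutrophil (11013 and 6835 CPM) transcripts and the most ribosomal RNA (15.0% and 14.7% of counts, against 2.89% to 5.32% elsewhere).

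The first comparison set injured mSSCs against sham control. Among the repair genes, those for resection (Exo1), for strand invasion (Brca2, Rad51c, Rad51ap1, Rad54l), for checkpoint signalling (Chek2) and for the Fanconi reaction (Fancm, Ube2t, Fanci) were higher in every injured library than in both sham libraries. For Xrcc3 and Rad52 every injured library was lower than both sham libraries under TMM scaling, but with scaling by library size alone neither gene kept this separation. The other 24 genes overlapped between the groups. In bulk samples, fewer cells of a type and less RNA per cell cannot be told apart.

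All 35 genes passed the low-count filter and were tested with edgeR's quasi-likelihood test. With the uninjured library as a group of its own, the filter asked for enough counts in a single library only. Exo1, Rad51c, Bard1 and Palb2 passed through injured libraries alone, the last 2 through injured 3. These 4 genes could only come out higher, and they are part of the counts and the median below. None passed an adjusted p of 0.05 (all genes: 0.00% of 16752 tested). At an unadjusted p under 0.05, edgeR had 5 of 35 higher (14.3%; Exo1, Rad54l, Fanci, Fancm, Fancb), against 2.44% of all genes, and 0 of 35 lower, against 2.20%. The 9 genes with injured wholly above sham were 25.7% of the set, against 11.9% of all genes, and the 2 wholly below were 5.71%, against 9.12%. The log2 fold change was above 0 for 23 of 35 genes, against 53.7% of all genes, and its median was 0.81 against 0.09. Setting the 8 genes that had no count in sham at their lower bounds could not move this median, because every bound lay above it. DESeq2 gave an adjusted p under 0.05 to 3 of the 35 (Exo1, Rad54l and Fanci, all higher), against 1.43% of all genes that were higher by the same rule, and limma-voom to none. The count of 5 rested on single libraries: it was 8 without sham 2, 2 without injured 2 and 3 without injured 3. The count over all genes moved too, from 409 higher to between 191 and 1194 with a library left out. With fewer libraries to separate, genes lay apart more easily over the whole table too: 14 of the 35 were wholly above sham without sham 1 (25.3% of all genes), 14 without sham 2 (28.6%) and 15 without injured 1 (21.8%). Wholly below were 7 without sham 1 (25.1% of all genes) and 8 without sham 2 (27.4%). The median of 0.81 was 1.44 without sham 1, 3.22 without sham 2, 1.40 without injured 1 and 0.17 without injured 3.

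**Figure D1:**
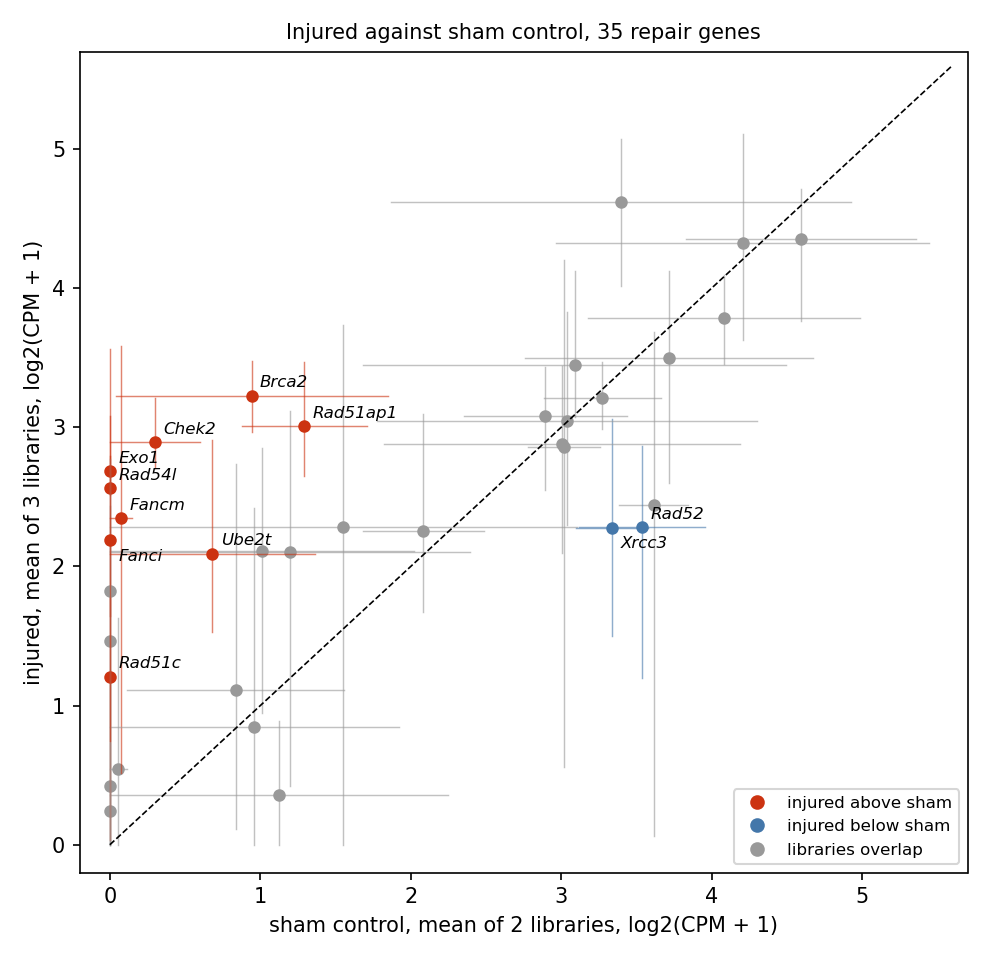
Mean level of each of the 35 genes in the 2 sham control libraries (horizontal axis) and the 3 injured libraries (vertical axis), both as log2(CPM + 1). Thin lines run from the lowest to the highest library and the dashed line marks equal levels. The 9 red genes, whose injured libraries all exceeded both sham libraries, lie at the low end of the sham axis, while the 2 blue genes are below the line.

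The summed level of proliferation marker transcripts was also higher in all 3 injured libraries. The 20 listed markers all had counts in sham and injured, and their summed level was 423 and 332 CPM in sham control, 182 CPM in the uninjured library with 5 markers at 0, and 809 to 1046 CPM in injured. Their part in the level of the repair genes was not tested. Blood transcripts did not follow the injury groups: the summed erythroid level was 38765 and 1.19 CPM in sham against 7.54 to 6077 CPM in injured (8 genes, of which 2 to 5 were at 0 in each of these libraries). Macrophage transcripts likewise ran from 47.3 to 2893 CPM in sham and from 37.3 to 4855 CPM in injured (10 genes, 4 at 0 in sham 2). With sham 1 and injured 1 both left out, 21 of the 35 repair genes lay above sham and 7 below, against 38.6% and 31.9% of all genes in the same 3 libraries.

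The windows at the start sites of 6 genes whose injured and sham libraries did not overlap are shown for comparison of their letters. RefSeq windows on GRCm38.p6, from 250 bases before to 50 after the start, were found for 27 of the 35 genes, and Rad54b, Xrcc2, Rad51d, Nbn, Exo1, Rad50, Rbbp8 and Fancd2 had no entry. Rad51b, Rad51c and Rad54l had 2 windows each, and a gene with several windows was counted where any of them held a match. Both strands were searched for the E2F-like letters TTCCCGC or TTGGCGC, for CCAAT, and for TTTGAA, the letters of the cell cycle homology region (CHR). E2F factors and the NF-Y factor, which reads CCAAT, are known regulators of genes used in S phase and G2. The windows below, each 5′ to 3′ on the gene's own strand, carry E2F-like and CCAAT matches in capitals. A match of one kind can overlap a match of the other, as in Ube2t, where a reversed TTGGCGC runs into a CCAAT.
Ube2t (chr1:134962315-134962614, plus strand): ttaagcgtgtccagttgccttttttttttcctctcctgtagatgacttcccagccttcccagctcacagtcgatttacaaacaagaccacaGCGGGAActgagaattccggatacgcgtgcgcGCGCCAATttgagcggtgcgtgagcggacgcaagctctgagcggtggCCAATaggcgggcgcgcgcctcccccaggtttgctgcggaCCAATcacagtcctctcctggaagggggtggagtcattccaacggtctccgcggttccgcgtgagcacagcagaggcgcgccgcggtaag
Rad51ap1 (chr6:126939538-126939837, minus strand): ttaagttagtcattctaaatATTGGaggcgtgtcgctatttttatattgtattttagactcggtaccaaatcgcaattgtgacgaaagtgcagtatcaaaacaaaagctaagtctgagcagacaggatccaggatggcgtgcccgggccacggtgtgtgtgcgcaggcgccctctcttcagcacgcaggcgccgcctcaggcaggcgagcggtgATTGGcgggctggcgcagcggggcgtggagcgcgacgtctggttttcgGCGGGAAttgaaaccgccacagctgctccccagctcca
Fancm (chr12:65075353-65075652, plus strand): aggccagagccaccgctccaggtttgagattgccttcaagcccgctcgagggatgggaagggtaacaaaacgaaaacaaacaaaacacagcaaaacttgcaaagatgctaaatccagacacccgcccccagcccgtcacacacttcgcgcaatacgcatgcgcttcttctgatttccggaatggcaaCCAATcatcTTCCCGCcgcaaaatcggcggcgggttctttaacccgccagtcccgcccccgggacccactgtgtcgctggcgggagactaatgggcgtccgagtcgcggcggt
Fanci (chr7:79392088-79392387, plus strand): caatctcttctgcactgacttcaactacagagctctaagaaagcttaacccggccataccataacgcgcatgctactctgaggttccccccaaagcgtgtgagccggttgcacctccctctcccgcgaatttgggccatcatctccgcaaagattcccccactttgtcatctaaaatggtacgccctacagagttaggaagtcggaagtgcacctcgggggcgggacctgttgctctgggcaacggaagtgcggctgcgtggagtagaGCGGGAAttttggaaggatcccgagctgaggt
Rad54l (chr4:116123641-116123940, minus strand): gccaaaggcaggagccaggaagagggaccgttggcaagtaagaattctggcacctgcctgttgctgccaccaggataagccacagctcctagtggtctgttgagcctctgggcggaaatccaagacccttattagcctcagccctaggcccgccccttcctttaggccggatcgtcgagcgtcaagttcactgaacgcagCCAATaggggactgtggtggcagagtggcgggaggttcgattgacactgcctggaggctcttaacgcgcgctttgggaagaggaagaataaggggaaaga
Xrcc3 (chr12:111813830-111814129, minus strand): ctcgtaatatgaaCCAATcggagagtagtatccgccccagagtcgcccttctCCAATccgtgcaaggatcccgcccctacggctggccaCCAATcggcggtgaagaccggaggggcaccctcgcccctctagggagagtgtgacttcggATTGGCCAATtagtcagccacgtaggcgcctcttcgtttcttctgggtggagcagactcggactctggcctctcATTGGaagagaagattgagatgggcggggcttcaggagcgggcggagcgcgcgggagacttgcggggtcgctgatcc
Ube2t holds 2 E2F-like and 3 CCAAT matches, and Rad51ap1 1 and 2. Fancm holds 1 of each, Fanci 1 E2F-like match alone, the Rad54l window shown 1 CCAAT alone, and Xrcc3 6 CCAAT matches with no E2F-like letters. An E2F-like match was present for 15 of 27 genes (55.6%), against 7.79% of all 27025 genes with a window. Of the genes with injured wholly above sham, 7 of 8 with a window had one (all but Rad54l). Among the overlapping genes 7 of 17 did, and of the 2 lower genes Rad52 did and Xrcc3 did not. CCAAT was found for 18 of 27 genes (66.7%), against 41.1% of all, and TTTGAA for 2 of 27 (7.41%), against 20.2%. The repair gene windows also had more G and C, with a median of 58.8% against 52.7% over all windows. These matches are descriptions of letters, not of bound sites.

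Among the sensing, resection and checkpoint genes, the exonuclease gene Exo1 and the kinase gene Chek2 separated the groups. Exo1, which degrades one strand of a broken end over long stretches, had no count in sham 1, sham 2 or the uninjured library, and stood at 5.93, 5.71 and 4.71 CPM in injured 1, 2 and 3. The 3 injured libraries lay close together (5.45 ± 0.65 CPM, SD, n = 3; 262, 346 and 220 counts). Against a floor of 3 counts over both sham libraries, Exo1 was at least 133-fold higher in injured (edgeR adjusted p = 0.865; DESeq2 adjusted p = 0.000463). Chek2, a kinase switched on by ATM, was at 0.514 and 0 CPM in sham 1 and sham 2 and at 8.24, 5.75 and 5.55 CPM in injured 1, 2 and 3. The groups did not overlap, but the uninjured library, at 7.98 CPM, lay among the injured ones. The log2 fold change of Chek2 was 4.65 ± 2.15 (SE; edgeR adjusted p = 0.865).

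Chek1, the kinase that answers ATR at stalled forks, had no count in sham or in injured 1, and stood at 1.61 CPM in the uninjured library, 2.89 CPM in injured 2 and 4.41 CPM in injured 3. The break sensor MRE11-RAD50-NBN and the nuclease cofactor CtIP (Rbbp8) did not separate the groups. Rad50 ranged from 5.77 to 24.5 CPM in sham and from 5.05 to 16.4 CPM in injured, and Nbn from 13.2 to 40.0 CPM and from 12.6 to 25.2 CPM. Mre11a had no count in sham 1 or injured 1 and reached 12.3 CPM in injured 3. Rbbp8 ranged from 2.65 to 29.5 CPM in sham and from 15.2 to 32.6 CPM in injured. For these genes the distance between libraries of a group exceeded that between the group means. The helicase gene Blm (4.11 to 9.83 CPM in sham, 4.84 to 9.78 CPM in injured) and the apical kinase genes Atm and Atr also overlapped. Atm and Atr were lowest in injured 1, at 0.475 and 0.0453 CPM, and stood at 10.8 to 17.4 CPM in the other injured libraries.

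Of the BRCA mediators, Brca2 alone was higher in every injured library. BRCA2 acts on resected ends ahead of strand invasion. Its transcript was at 0.0270 and 2.60 CPM in sham 1 and sham 2, 3.07 CPM in the uninjured library, and 10.1, 8.41 and 6.83 CPM in injured 1, 2 and 3. The lowest injured library was above all 3 others, and the means were 8.45 ± 1.64 CPM (SD, n = 3) in injured and 1.31 ± 1.82 CPM (SD, n = 2) in sham, a ratio of 6.44. The log2 fold change was 2.69 ± 1.86 (SE; edgeR adjusted p = 0.865). Brca1, whose protein promotes resection and recruits BRCA2 through PALB2, had no count in sham 1 or the uninjured library, 4.25 CPM in sham 2, and 0.339 to 7.66 CPM in injured. The BRCA1-bound helicase gene Brip1 ranged from 0 to 3.07 CPM in sham and from 0.928 to 6.23 CPM in injured. Bard1, the partner of BRCA1 in its ubiquitin ligase, and Palb2 were counted in injured 3 alone, with 65 and 31 counts. In sham 1 the 5 mediators together had 1 count, in Brca2.

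The strand exchange group held genes of both directions. Rad51ap1, a factor that stimulates strand invasion, was at 0.838 and 2.26 CPM in sham 1 and sham 2, 0.633 CPM in the uninjured library, and 6.54, 10.1 and 5.27 CPM in injured 1, 2 and 3. Every injured library exceeded the other 3, with means of 7.29 ± 2.48 CPM (SD, n = 3) in injured and 1.55 ± 1.01 CPM (SD, n = 2) in sham. The log2 fold change was 2.23 ± 1.41 (SE; edgeR adjusted p = 0.865). Rad54l, a DNA motor that helps open the intact copy, had no count in either sham library, 0.633 CPM in the uninjured library, and 2.13, 7.45 and 6.79 CPM in injured 1, 2 and 3. Injured was at least 133-fold above sham (edgeR adjusted p = 0.865; DESeq2 adjusted p = 0.000313), with injured 1 the lowest of its group. Exons of Rad54l overlap those of Lrrc41 on the opposite strand. Use of strand in the counting is not stated in the labels, and reads of such a pair cannot be told apart with certainty.

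Rad51c, a subunit shared by both paralogue complexes of strand exchange, had no count in sham or in the uninjured library, 1 count in injured 1 (0.0226 CPM), and 2.46 and 2.48 CPM in injured 2 and 3. Its separation from sham thus rested on that single count, and its mean of 1.66 ± 1.41 CPM (SD, n = 3) was at least 40-fold above sham (edgeR adjusted p = 0.865). The paralogue genes Rad51d and Xrcc2 were at 2.21 to 21.5 CPM in sham and 6.94 to 16.4 CPM in injured, and overlapped. Rad51b ranged from 0 to 3.76 CPM in sham and from 0 to 0.857 CPM in injured. Rad54b, a relative of Rad54l, had 3 counts in sham 1 and was otherwise counted in injured 3 alone (2.10 CPM). Exons of Rad54b overlap those of Fsbp on the same strand. Xrcc3, the partner of RAD51C in the smaller paralogue complex, was at 7.57 and 10.9 CPM in sham 1 and sham 2, 6.77 CPM in the uninjured library, and 1.83, 3.83 and 7.34 CPM in injured 1, 2 and 3. The separation was narrow, with injured 3 just under sham 1, and the log2 fold change was -1.09 ± 1.10 (SE; edgeR adjusted p = 0.912). Xrcc3 also shares exonic sequence with Klc1 on the opposite strand. Rad52, which anneals single strands, was at 7.68 and 14.5 CPM in sham 1 and sham 2, 12.6 CPM in the uninjured library, and 1.29, 6.28 and 5.91 CPM in injured 1, 2 and 3. All injured libraries lay below the other 3, at 4.49 ± 2.78 CPM (SD, n = 3) against 11.1 ± 4.84 CPM in sham (SD, n = 2), and the log2 fold change was -1.30 ± 1.06 (SE; edgeR adjusted p = 0.865). With library size alone as the scaling, Rad52 and Xrcc3 both overlapped between injured and sham.

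In the Fanconi core group, the DNA translocase gene Fancm and the ubiquitin-conjugating enzyme gene Ube2t separated from sham. Fancm, whose protein anchors the core complex on DNA, was at 0.108 CPM in sham 1 (4 counts), at 0 in sham 2 and in the uninjured library, and at 0.430, 11.0 and 6.72 CPM in injured 1, 2 and 3. Injured 1 was close to the sham level and injured 2 and 3 were far above it. The means were 6.04 ± 5.30 CPM (SD, n = 3) and 0.0541 ± 0.0765 CPM (SD, n = 2), and the log2 fold change was 6.73 ± 2.76 (SE; edgeR adjusted p = 0.865; DESeq2 adjusted p = 0.0681). Ube2t, the enzyme that passes ubiquitin to FANCD2 and FANCI, was at 0 and 1.57 CPM in sham 1 and sham 2, at 0 in the uninjured library, and at 6.50, 1.88 and 2.59 CPM in injured 1, 2 and 3. Here injured 1 was the highest, and injured 2 stood only just above sham 2. The log2 fold change of Ube2t was 2.21 ± 2.47 (SE; edgeR adjusted p = 0.932).

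Fancb, an X-linked core subunit, had no count in sham or in injured 1, and 5.48 and 5.82 CPM in injured 2 and 3 (edgeR adjusted p = 0.865). The uninjured library had 5.45 CPM of Fancb, level with those injured libraries. The core subunits Fance, Fancf and Fancg had their highest level in sham 1 and the next in injured 1, which were the libraries with the most blood transcripts, whose part in these levels was not tested. Fance stood at 42.6 CPM in sham 1, 6.82 CPM in sham 2 and 33.5, 11.3 and 17.8 CPM in injured 1, 2 and 3. Fancc ran the other way within sham, from 8.06 CPM in sham 1 to 30.7 CPM in sham 2, with 9.96 to 16.1 CPM in injured. Fancl, the ubiquitin ligase of the complex, was at 2.21 to 4.60 CPM in sham and 2.18 to 7.56 CPM in injured, and Fanca was highest in injured 3 at 5.67 CPM and at or below 1.95 CPM in every other library. Exons of Fanca, Fancf and Fancl overlap those of Zfp276, Gas2 and Vrk2 on the opposite strand.

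The pair that the core complex modifies behaved unevenly. Fanci had no count in sham 1 or sham 2, 0.779 CPM in the uninjured library, and 0.679, 10.8 and 3.81 CPM in injured 1, 2 and 3. Each injured library exceeded sham, with injured 1 at the level of the uninjured library, and injured was at least 124-fold above sham (edgeR adjusted p = 0.865; DESeq2 adjusted p = 0.00222). Fancd2 overlapped, at 0 and 2.79 CPM in sham 1 and sham 2, 0 in uninjured cells, and 0, 0.0826 and 4.35 CPM in injured 1, 2 and 3. Fanci shares exonic sequence with Polg, and Fancd2 with Fancd2os, each on the opposite strand.

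**Figure D2:**
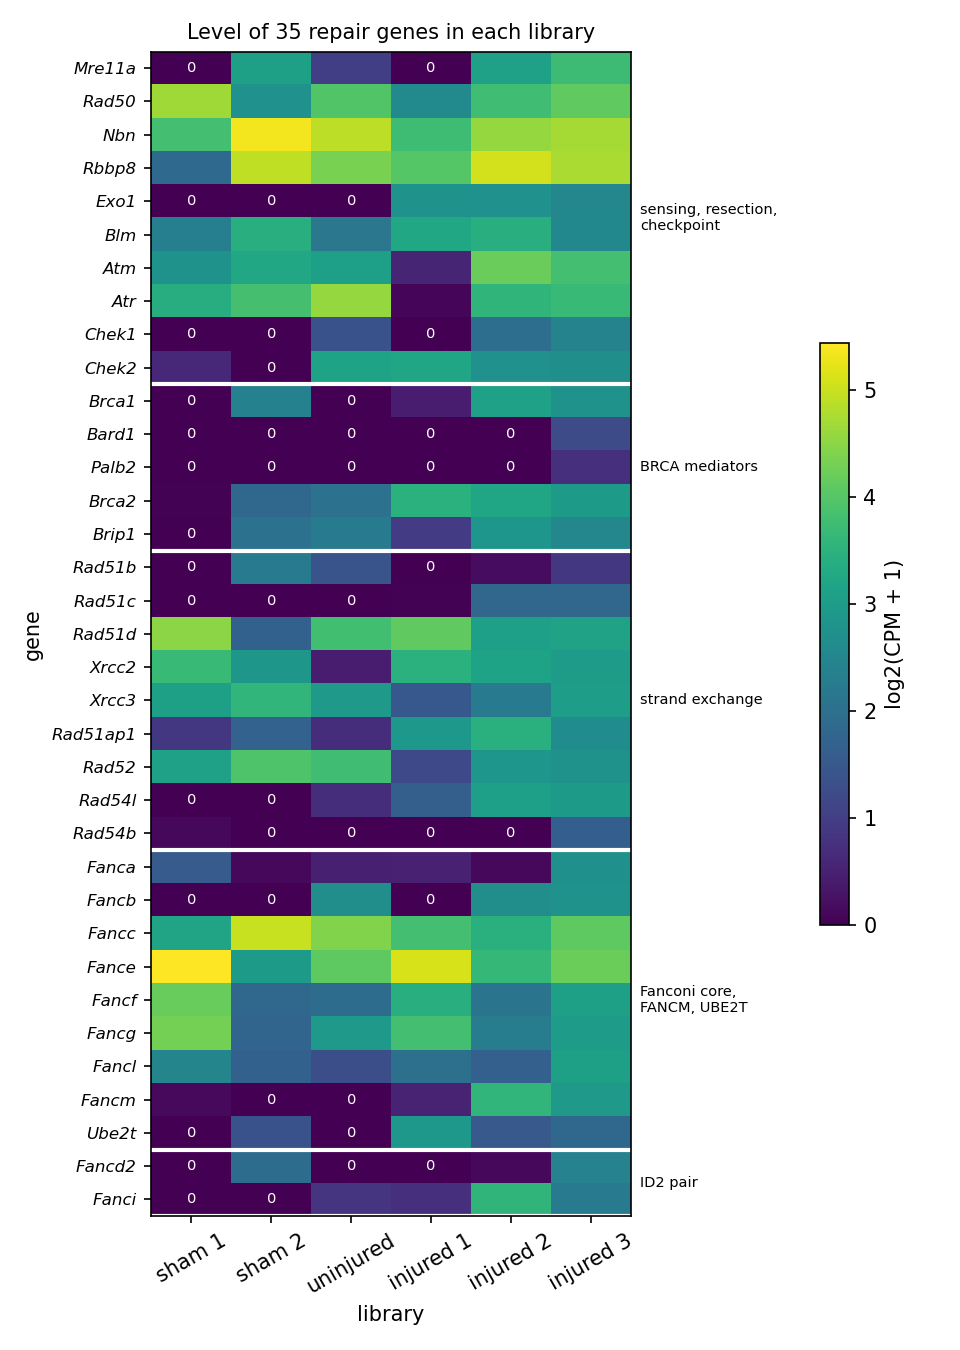
Level of the 35 genes (vertical axis, ordered by role group) in each of the 6 libraries (horizontal axis), coloured as log2(CPM + 1), with 0 printed where a gene had no count. The column of sham 1 holds 14 zeros, and that of injured 3 holds none.

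**Figure D3:**
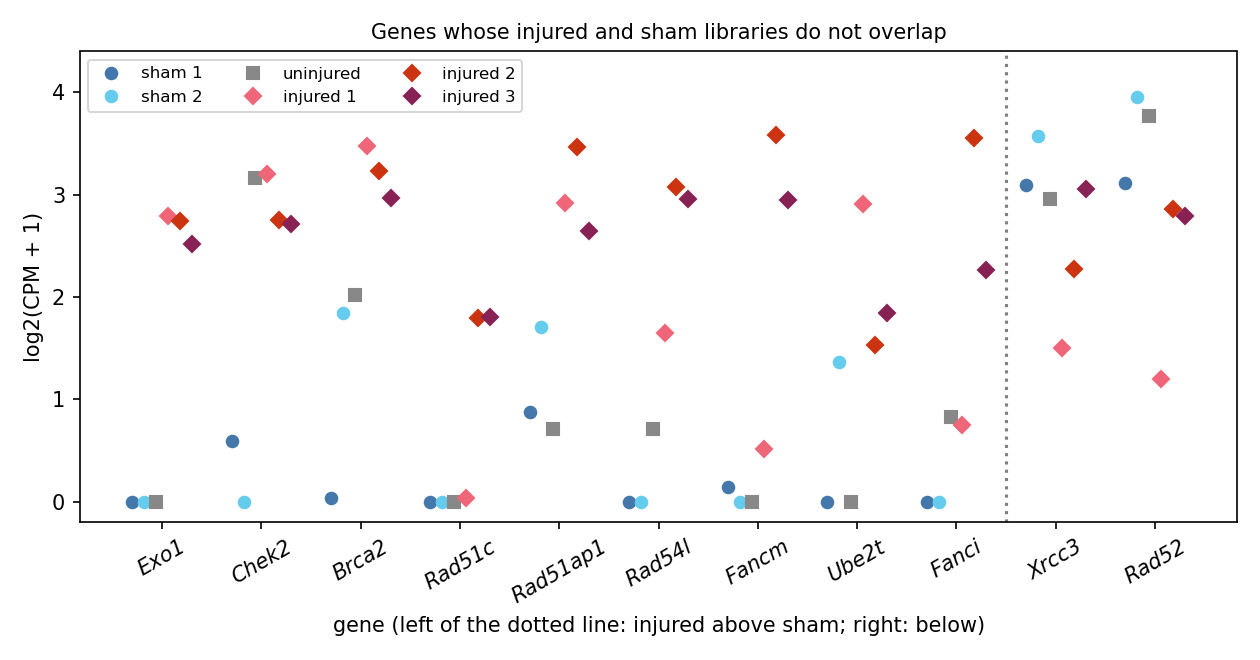
Level of the 11 genes whose injured and sham libraries did not overlap, as log2(CPM + 1) on the vertical axis with 1 point per library. To the left of the dotted line are the 9 genes with injured above sham, of which Chek2 has its uninjured point among the injured ones, and to the right Xrcc3 and Rad52.

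A further contrast set injured against all 3 other libraries, sham and uninjured together, because the description field of the uninjured library names it a sham while its title and treatment do not. This contrast shares the injured and the sham libraries with the first comparison. Exo1, Brca2, Rad51c, Rad51ap1, Rad54l, Fancm and Ube2t were higher in all 3 injured libraries than in all 3 others (7 of 35, 20%, against 9.23% of all genes), and Rad52 was lower (1 of 35, against 7.07%). Chek2 and Fanci no longer separated, because the uninjured library stood at 7.98 CPM and 0.779 CPM for them. Relative to the range of the 2 sham libraries, the uninjured library was above it for 8 genes, below it for 5 and within it for 22.

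Of the 35 genes, 30 passed the filter in this comparison (Bard1, Palb2, Rad51c, Rad54b and Fancd2 did not) and 0 passed edgeR's adjusted p of 0.05 (all genes: 0.00% of 14110). At an unadjusted p under 0.05, edgeR had 2 higher, Exo1 and Fancm, against 3.71% of all genes, and 0 lower, against 3.72%. Exo1 and Fancm passed the filter here through the injured libraries alone, so both could only come out higher. DESeq2 gave both genes an adjusted p under 0.05, against 1.01% of all genes that were higher by the same rule. The log2 fold change was above 0 for 19 of the 30, against 50.1% of all genes, with a median of 0.57 against 0.00 that was 1.03 without injured 1. Exo1 was at least 207-fold above the non-injured libraries (edgeR adjusted p = 0.429; DESeq2 adjusted p = 3.43e-05). For Fancm the log2 fold change was 7.29 ± 2.38 (SE; edgeR adjusted p = 0.524; DESeq2 adjusted p = 0.0159). For Rad51ap1 it was 2.54 ± 1.11 (SE; edgeR adjusted p = 0.691), for Brca2 2.15 ± 1.47 (SE; edgeR adjusted p = 0.862) and for Rad52 -1.37 ± 0.89 (SE; edgeR adjusted p = 0.844). The count of 2 was 6 without sham 2 and 1 without injured 2, and limma-voom had 5 at an unadjusted p under 0.05. Over all genes, 524 were higher at that p with edgeR, 407 to 864 with a library left out, and 744 with limma-voom. The count of 7 above was 14 without injured 1 (15.4% of all genes), and the count of 1 below was 5 without sham 1 (14.6%), 2 without injured 3 (11.8%) and 0 with library size alone. Without sham 1 and injured 1, 16 genes lay above and 5 below, against 23.9% and 19.2% of all genes.

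Many of the 35 genes had no count in some libraries. No count was found for 14 and 11 of the 35 genes in sham 1 and sham 2, for 9 in the uninjured library, and for 8, 3 and 0 in injured 1, 2 and 3. Over all genes with a count in any library, 23.3% and 27.0% had none in sham 1 and sham 2, 25.6% in uninjured cells, and 26.0%, 20.8% and 11.0% in injured 1, 2 and 3. As shares of the 35 repair genes, these were 40% and 31.4% in sham 1 and sham 2, 25.7% in uninjured cells, and 22.9%, 8.57% and 0% in injured 1, 2 and 3, with no test of the difference from all genes. Total counts were also lower in the sham libraries (38382144 and 40483028) than in the injured ones (46250870 to 51089267). The mean level of the 35 genes was 1.61 and 1.88 log2(CPM + 1) in sham and 1.87 in the uninjured library. It was 1.80, 2.54 and 2.85 in injured 1, 2 and 3. Injured 1 thus lay between the sham libraries, and it was the lowest injured library for 18 of the 35 genes and the highest for 9, while over all genes it was the lowest for 39.4% and the highest for 35.2%.

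Zeros were also counted by transcript length. Split at the median transcript length of 3523 bases in GENCODE M21, the 17 longer genes had 10 and 7 zeros in sham 1 and sham 2, 7 in uninjured cells and 5, 2 and 0 in injured 1, 2 and 3, while the 18 shorter genes had 4, 4, 2, 3, 1 and 0 in the same order. The shorter genes had a mean level of 2.29 and 2.27 log2(CPM + 1) for sham, 2.42 for the uninjured library and 2.61, 2.66 and 3.03 for injured, without overlap between injured and the other libraries in this measure. Their summed levels did overlap, at 157 and 156 CPM in sham, 145 CPM in the uninjured library and 153, 143 and 164 CPM in injured. The longer genes had a mean level of 0.88 and 1.45 for sham, 1.28 for the uninjured library and 0.94, 2.42 and 2.66 for injured, with injured 1 among the sham libraries. Summed, they stood at 46.1 and 57.9 CPM in sham, 59.4 CPM in the uninjured library and 33.0, 114 and 110 CPM in injured. Libraries differed in the same property over all genes: among genes with a mean above 5 CPM, the fifth with the longest transcripts had a median log2 deviation from the gene's own mean of -0.23 in sham 1 and -0.40 in injured 1, against 0.23 in sham 2, 0.44 in the uninjured library, -0.02 in injured 2 and 0.34 in injured 3. The part of transcript length in the level of the repair genes was not tested. Per kilobase of transcript, mean levels over the 6 libraries were highest for Fance (10.6 CPM per kilobase) and Nbn (9.41 CPM per kilobase). Fance exceeded Nbn in sham 1 and injured 1 and lay under it in the other 4 libraries. Mean levels were lowest for Bard1 (0.0410 CPM per kilobase) and Palb2 (0.0295 CPM per kilobase).

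**Figure D4:**
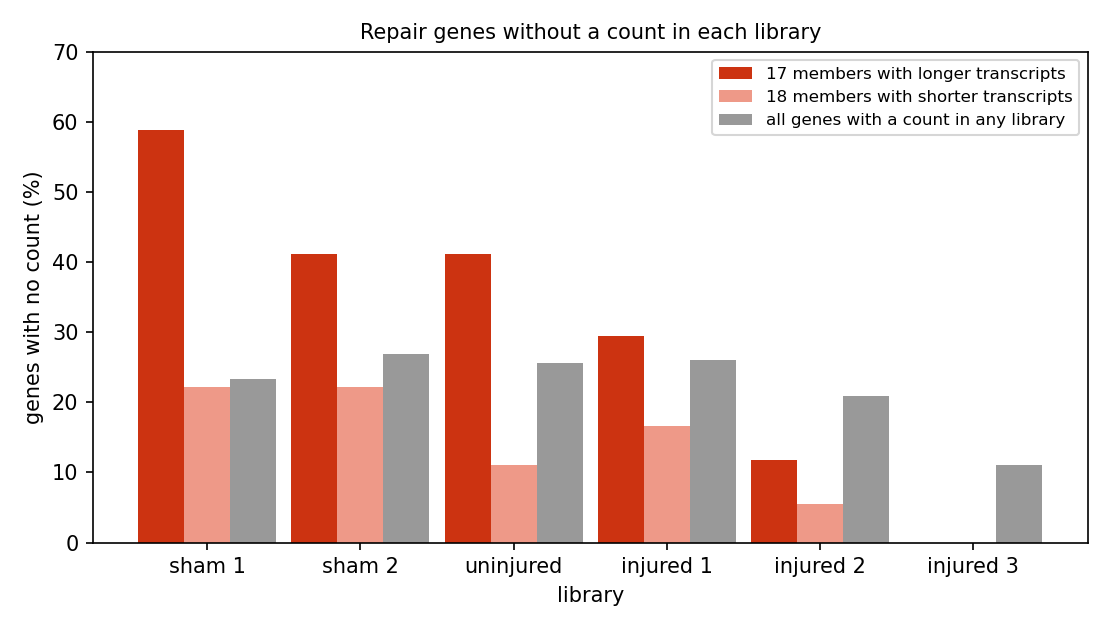
Percentage of genes with no count (vertical axis) in each library (horizontal axis), for the 17 repair genes with longer transcripts, the 18 with shorter transcripts and all genes with a count in any library. The longer genes have 10 zeros in sham 1 and none in injured 3.

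Of 52 further recombination and crosslink repair genes found in the table, such as the RPA, MCM8-9 and structure-specific nuclease genes, 51 were tested with edgeR against sham control. Of these, 1 was higher (1.96%) and 0 lower at an unadjusted p under 0.05, against 2.44% and 2.20% of all genes. Wholly above sham lay 10 of the 52 (19.2%) and wholly below 5 (9.62%), against 11.9% and 9.12% of all genes. The median log2 fold change was 0.25 against 0.09 for all genes. The higher gene was Mcm8, a helicase subunit, which had no count in sham or injured 1 and stood at 13.0 and 3.21 CPM in injured 2 and 3, with 3.82 CPM in uninjured cells, above injured 3 (edgeR adjusted p = 0.865; DESeq2 adjusted p = 0.0539).

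The remaining repair routes were tested with edgeR against sham control in the same fit. Over all genes, 2.44% were higher at an unadjusted p under 0.05, 11.9% lay wholly above sham and 9.12% wholly below. Of 24 further checkpoint and chromatin response genes, 1 was higher at an unadjusted p under 0.05 and 4 lay wholly above sham with 1 below. That one was the fork protection gene Timeless, with no count in sham and 6.02, 16.6 and 11.0 CPM in injured 1, 2 and 3, at least 273-fold higher (edgeR adjusted p = 0.865; DESeq2 adjusted p = 1.04e-06). Of 11 end joining genes, 2 were higher at that level and 3 lay wholly above. The 2 were the ligase gene Lig4 (0 in both sham libraries; 15.2, 2.10 and 4.60 CPM in injured 1, 2 and 3; 6.62 CPM in uninjured cells, above injured 2 and 3; edgeR adjusted p = 0.865; DESeq2 adjusted p = 0.000103) and Xrcc6, which encodes the end-binding protein Ku70 (7.81 and 6.77 CPM in sham; 7.64 CPM in uninjured cells; 16.6, 39.7 and 21.0 CPM in injured; edgeR adjusted p = 0.865; DESeq2 adjusted p = 0.234). None of the 7 mismatch repair, 20 base excision repair or 21 nucleotide excision repair genes had an unadjusted p under 0.05. Of these, 2, 4 and 4 lay wholly above sham and 1, 2 and 3 wholly below, in that order.

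Genes induced by p53, the factor that ATM and CHEK2 stabilise after a break, had a median log2 fold change below 0. Of 21 tested with edgeR, 0 were higher and 3 lower at an unadjusted p under 0.05, against 2.44% and 2.20% of all genes. Wholly below sham lay 5 of the 21 (23.8%) and wholly above 2 (9.52%), against 9.12% and 11.9% of all genes. That median was -0.44 against 0.09 for all genes. The cell cycle inhibitor gene Cdkn1a stood at 422 and 863 CPM in sham and 256, 226 and 288 CPM in injured (edgeR adjusted p = 0.865). Btg2, which restrains proliferation, stood at 454 ± 222 CPM (SD, n = 2) in sham and 177 ± 50.8 CPM (SD, n = 3) in injured, and the kinase gene Plk2 at 86.2 ± 48.7 and 36.1 ± 1.78 CPM (SD, n = 2 and 3). Of the 20 proliferation markers, 9 were higher at an unadjusted p under 0.05 (45%) and 14 lay wholly above sham (70%) with 1 below (5%). Their median log2 fold change was 1.48. Ccna2, the cyclin of S phase, stood at 6.68 and 1.08 CPM in sham 1 and sham 2, at 0 in uninjured cells and at 52.7, 68.4 and 45.2 CPM in injured, a log2 difference of 3.84 ± 0.91 (SE; edgeR adjusted p = 0.865; DESeq2 adjusted p = 0.00222). Mki67 stood at 32.8 and 7.46 CPM in sham 1 and sham 2, 3.97 CPM in uninjured cells and 33.4, 82.5 and 74.8 CPM in injured, where injured 1 was close to sham 1 (edgeR adjusted p = 0.865).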

How the data were processed

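A low-input kit turned 150 pg of total RNA per library into amplified cDNA, per the labels' protocols. The authors deposited whole-number counts per gene symbol for the 6 libraries, taken here as counts without scaling between libraries. The submitters' processing notes name Salmon 0.12.0, DESeq2 1.22.2, DESeq and 2 builds (GRCm38.p6 and mm9) with no roles, so gene coordinates are given only for RefSeq promoter windows. The step from transcript estimates to gene counts and the use of strand are not stated in those notes. Reads carry no molecular identifiers, so floors cover counting error only.

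Differences were tested with edgeR 4.0.16 (R 4.3.3): TMM scaling, filterByExpr with a minimum count of 10, quasi-likelihood F test, and Benjamini-Hochberg adjustment over all genes tested, with a threshold of 0.05. This test gives no standard error. The SE shown is an approximation, the absolute log2 fold change divided by the square root of F. Injured against sham control was fitted on 6 libraries as 3 groups (3 residual degrees of freedom), and injured against all non-injured as 3 libraries against 3 (4 residual degrees of freedom). Where a group had no count of a gene, the fold is a lower bound against 3 counts over that group. DESeq2 1.42.0, limma-voom (limma 3.58.1), other scalings and filters, left-out libraries and a replicate block were alternatives. The script was tested on simulated data. The members and lists were chosen with earlier results of these data known. Every member is named; values in each library are given where injured and sham did not overlap or edgeR's unadjusted p was under 0.05, up to 3 genes by smallest p are named from the other lists, and 1 further gene is not reported here.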

Additional observations from a re-analysis of the deposited data

How the results depend on the processing

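The counts rested on few libraries. Against sham control, DESeq2 gave 3 of the 35 genes an adjusted p under 0.05 and 9 a higher level at an unadjusted p under 0.05. Leaving out single libraries moved edgeR's 5 higher genes between 2 and 8, the genes wholly above sham between 9 and 15, those below between 2 and 8, and the median log2 fold change between 0.17 and 3.22. Without sham 1 and injured 1, these 3 edgeR counts were 8, 21 and 7, and with library size alone 0 genes lay below. Against all non-injured libraries, DESeq2 gave 2 genes an adjusted p under 0.05 and 4 an unadjusted one, limma-voom 5 unadjusted. Leaving out single libraries gave 1 to 6 at an unadjusted p, 7 to 14 above, 1 to 5 below and a median of 0.45 to 1.03. Without sham 1 and injured 1, 16 lay above and 5 below, and with library size alone 0 below. Fewer libraries make separation easier by construction. Over all genes against sham control, genes with an adjusted p under 0.05 numbered 3 without a filter, 369 with DESeq2 and 1 with limma-voom. At an unadjusted p, DESeq2 had 900 higher and 715 lower, left-out single libraries 191 to 1194 and 174 to 567, and both left out 1182 and 591. Against all non-injured, the adjusted numbers were 5, 345 and 7. At an unadjusted p, 407 to 864 were higher and 291 to 622 lower with single libraries left out, 874 higher with both left out, and 832 lower with DESeq2. Of the other lists, DESeq2 gave 5 genes an adjusted p under 0.05 and 5 lower at an unadjusted one. Scaling moved the median of all genes from 0.09 to 0.02 (relative log expression) or 0.23 (library size). Sham and injured libraries share the replicate numbers 1 and 2, but nothing in the labels pairs them. Deviations from the group means correlated at 0.37 for number 1, at 0.01 for number 2, and at 0.45 for sham 2 with injured 3, which share no number. With 2 sham libraries the deviations of one mirror those of the other, so these values cannot decide whether libraries were paired. The block fit left out the uninjured library, which has no number, so 1 fit of injured against sham stands for both comparisons: 0 of the 35 genes had an unadjusted p under 0.05, 243 of all genes were higher, and 2 of the 35 lay below sham. Injured 3 is the only library with its number, so it adds nothing to the contrast in that fit. Fewer residual degrees of freedom remain there than in the other fits, so its 0 is a weak result. The main fits called none of the 35, so only DESeq2's calls could show a reversed direction, and none did. Among uncalled genes, the sign of the fold change flipped in 41 gene-by-setting cases against sham control, with 471 unchanged. Against all non-injured libraries it flipped in 26 cases, with 388 unchanged. DESeq2 called Exo1, Rad54l and Fanci against sham and Exo1 and Fancm against all non-injured, and no other alternative called any of the 35. The causes of these shifts were not tested. Depth limits the genes near 0: 3 counts over both sham libraries correspond to 0.0410 CPM.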
